A study of Mus musculus with 21 samples.

Results

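Transcripts of 10 genes that take up, store and carry lipid were followed in the kidneys of apoE knockout mice. These were Lpl, Angptl4, Cd36, Vldlr, Dgat2, Plin2, Scd1, Apoe, Abca1 and Pltp. They were chosen by name with earlier results of these data known, so the shares of them called below are descriptive. Matched by gene symbol to an Ensembl identifier, they were found as 10 of the 20634 genes with a value in every mouse analysed. RNA-seq of whole kidney was available from 17 mice on different diets. The Con group (5 mice) received chow, the Ade group (6 mice) chow with 0.2% adenine, and the Ade + IMC group (6 mice) chow with 0.2% adenine and 0.06% iodomethylcholine (IMC). Fed to mice, adenine injures the tubules and interstitium and serves as a model of chronic kidney disease. IMC blocks the bacterial enzyme that turns choline into trimethylamine in the gut. All 17 mice were female, carried the apoE knockout on a C57BL/6J background, started their diet at 4 weeks of age and were killed at 18 weeks, after 14 weeks of feeding. No wild-type kidney was part of the design, so every value below was measured on the apoE knockout background, and the 4 mice given IMC without adenine were not analysed here.

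Total counts ranged from 7716126 to 11680809 in the Con group, from 5444833 to 7673215 in the Ade group and from 5728589 to 8305968 in the Ade + IMC group. The labelled tissue was checked by nephron genes, and all 10 proximal tubule markers and all 9 markers of the glomerulus, loop, distal tubule and collecting duct were read. Levels are given in CPM, counts scaled to a library size that TMM adjusted over all 17 mice. A gene was called higher or lower where its p-value, adjusted over all genes tested by the method of Benjamini and Hochberg, was below 0.1, the threshold of the study's methods. Each adenine group was set against the Con group by the quasi-likelihood test of edgeR, and the adenine groups were set against each other by limma on log2(normalized count + 1). The 3 comparisons share mice, so they are not independent of each other. Other lipid genes were grouped in role lists, also drawn up with earlier results of these data known. Most of those named singly below were picked for the largest changes between Ade and Con among the called genes of their list, so they are not typical of it.

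Some samples were high in fat cell genes. The 5 defining fat cell genes (Adipoq, Cfd, Retn, Ucp1 and Adrb3) were summed in CPM for each mouse. The sum was 809.4 in Ade + IMC mouse 212, 230.4 in Ade + IMC mouse 211, 197.1 in Ade mouse 207 and 146.6 in Ade + IMC mouse 410. In the other 13 mice it lay between 0.271 and 31.0, and all 5 Con mice were at or below 20.1. These 4 mice stood apart from the rest, and 3 of the 4 were in the Ade + IMC group. Results that rest on them are given below with and without them.

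Lipoproteins carry triglyceride and cholesterol through the blood. Lipoprotein lipase on the capillary wall frees fatty acids from triglyceride, ANGPTL4 inactivates that enzyme, and receptors and transporters such as VLDLR and CD36 take up particles and fatty acids. Inside the cell fatty acids are desaturated by SCD1, built into triglyceride by DGAT2 and kept in droplets coated by PLIN2, while ABCA1, apoE and PLTP move cholesterol and phospholipid out to lipoproteins. The kidney cortex lives mostly on fatty acid oxidation in the proximal tubule, and lipid droplets are a known feature of injured tubules.

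Promoter sequence was found for 6 of the 10 genes (Cd36, Vldlr, Plin2, Apoe, Abca1 and Pltp) in the RefSeq table of the GRCm38.p6 build, and no entry was found for Lpl, Angptl4, Dgat2 and Scd1. The 250 bases before the RefSeq start site are shown for 3 genes whose RNA was higher in Ade than in Con kidneys (Abca1, Plin2 and Pltp) and 1 whose RNA was lower (Cd36), the members with a single start site in that table. Sequences run from 5′ to 3′ on the strand of the gene, and all 4 genes are on the minus strand. Capitals mark matches, on either strand, to CACGTG (an E-box), AGGTCA (the unit bound by many nuclear receptors), CCAAT (the box bound by NF-Y), GGGCGG (a GC box) and TATAAA, with no overlap between matches in the 4 sequences. The windows are chr4:53159896-53160145 for Abca1, chr4:86670060-86670309 for Plin2, chr2:164857709-164857958 for Pltp and chr5:17835897-17836146 for Cd36. The Cd36 window lies inside the annotated span of that gene (17781690 to 17888801), and which start site the kidney RNA came from was not tested.
Abca1: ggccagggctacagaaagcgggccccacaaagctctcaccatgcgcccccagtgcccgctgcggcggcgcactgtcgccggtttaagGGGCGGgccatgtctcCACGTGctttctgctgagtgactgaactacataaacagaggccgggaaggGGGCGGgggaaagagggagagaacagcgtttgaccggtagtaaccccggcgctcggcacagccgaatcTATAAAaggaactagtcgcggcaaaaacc
Plin2: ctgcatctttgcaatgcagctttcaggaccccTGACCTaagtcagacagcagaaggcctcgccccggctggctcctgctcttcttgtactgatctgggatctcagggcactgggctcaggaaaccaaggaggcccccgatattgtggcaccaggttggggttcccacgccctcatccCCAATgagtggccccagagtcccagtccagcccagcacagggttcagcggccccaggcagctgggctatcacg
Pltp: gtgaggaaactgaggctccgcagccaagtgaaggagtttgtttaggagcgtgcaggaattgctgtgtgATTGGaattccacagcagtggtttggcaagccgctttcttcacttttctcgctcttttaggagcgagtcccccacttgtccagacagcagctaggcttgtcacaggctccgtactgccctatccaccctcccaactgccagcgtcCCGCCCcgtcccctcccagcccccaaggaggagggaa
Cd36: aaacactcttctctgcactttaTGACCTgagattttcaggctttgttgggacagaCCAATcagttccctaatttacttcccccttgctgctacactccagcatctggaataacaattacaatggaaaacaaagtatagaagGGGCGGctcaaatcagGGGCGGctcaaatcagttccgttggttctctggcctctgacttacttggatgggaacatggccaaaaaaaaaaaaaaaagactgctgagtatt
The E-box stood in the Abca1 window alone among these 4, and in 6.02% of all 32851 upstream windows of this length. The AGGTCA unit was present once each in the Plin2 and Cd36 windows and in 14% of all windows. CCAAT was present in the Plin2, Pltp and Cd36 windows and in 33.8% of all, and GGGCGG was present in the Abca1, Pltp and Cd36 windows and in 32.7% of all. TATAAA was present in the Abca1 window and in 12.4% of all. No motif of the 5 was shared by all 3 of the genes shown that were higher, and these matches are letters in a window, not sites at which a factor was measured.

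Adenine feeding was followed by opposite changes within this group of genes. Pltp, Angptl4, Abca1, Apoe and Plin2 were higher in Ade than in Con kidneys, by 1.68-fold to 6.03-fold, and Scd1, Cd36, Dgat2, Lpl and Vldlr were lower, by 2.19-fold to 3.91-fold. Hence 5 of the 10 genes were called higher, where 35.1% of the 14612 genes tested were called higher, and 5 were called lower, where 32.2% were. In all, 67.3% of the genes tested were called in this comparison. The median log2 fold change was −0.195 over the 10 genes and 0.019 over all genes tested. The groups did not overlap in any mouse for 8 of the 10 genes, the exceptions being Angptl4 and Apoe, where 43% of all genes tested had no overlap. All 10 calls were also made when any 1 mouse was left out, Ade mouse 207 included, the only mouse of this comparison high in fat cell markers.

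**Figure D1:**
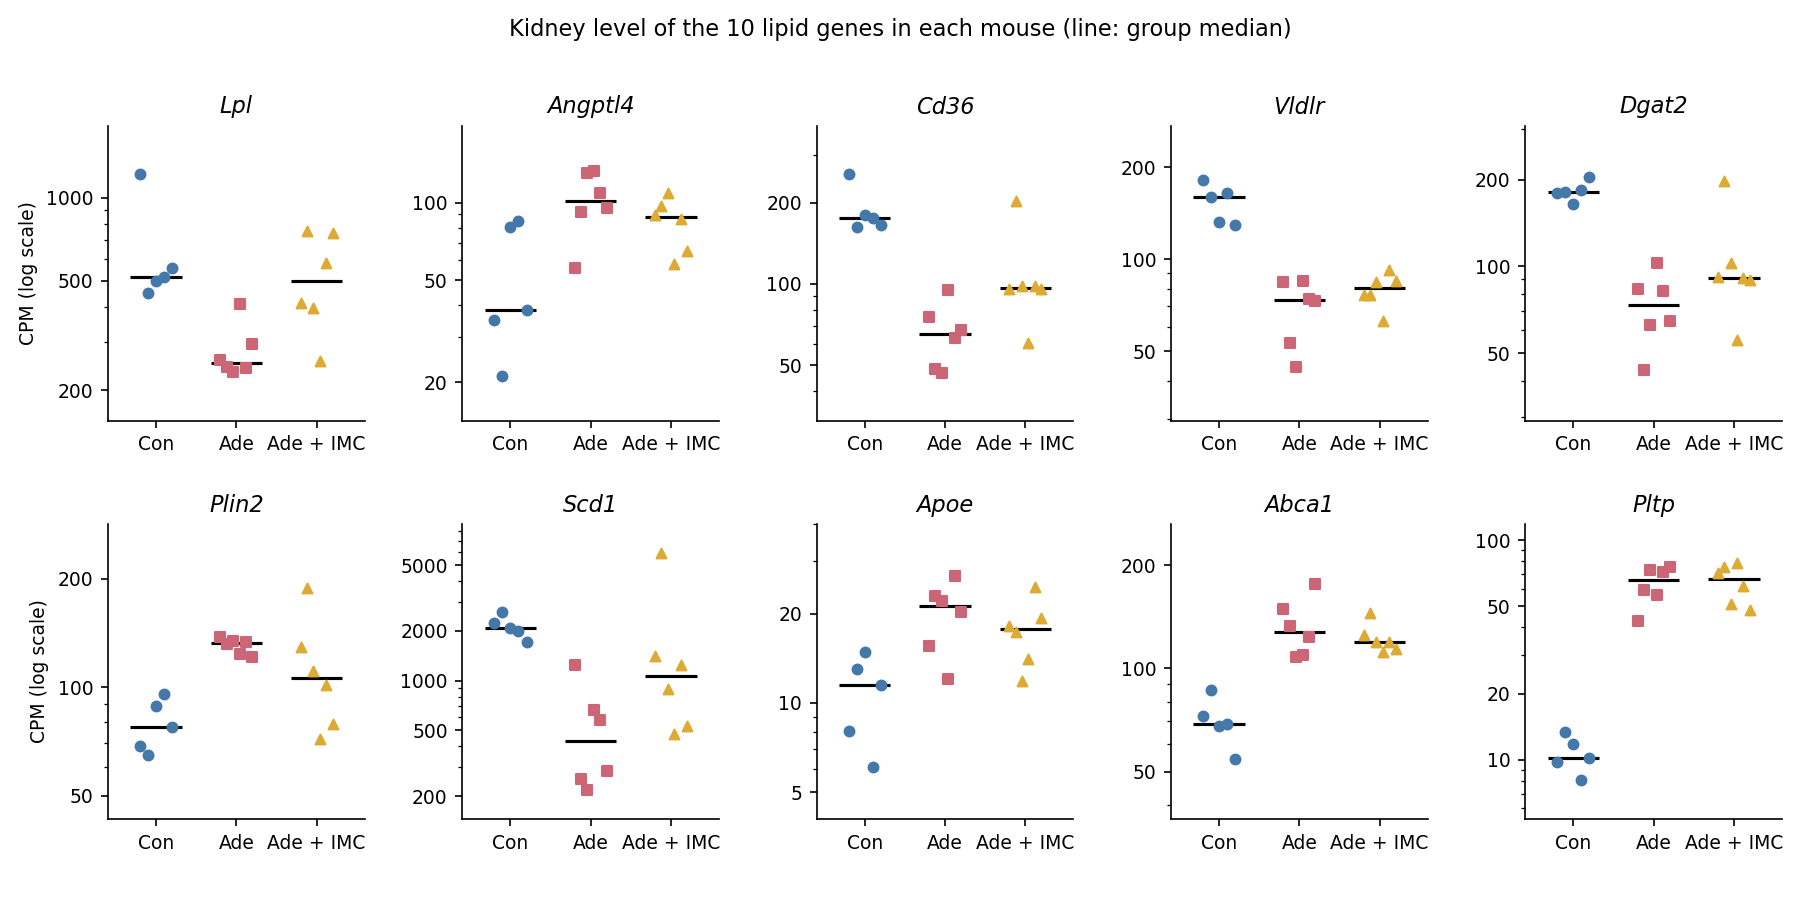
Level of each of the 10 genes in every mouse, in CPM on a log scale, for the Con (circles), Ade (squares) and Ade + IMC (triangles) groups. Each point is 1 mouse and the line is the group median. Pltp and Abca1 of every Con mouse lay below every other mouse, and 1 Ade + IMC mouse stood far above its group for Scd1, Dgat2 and Cd36.

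Apoe, the gene targeted in these mice, encodes the apolipoprotein by which remnant particles are cleared. Its counts come from chromosome 7 (19696109 to 19699188, minus strand, GRCm38), and which exons they fall on is not shown by a table of counts per gene. Apoe counts were 47 to 110 per Con mouse, 89 to 214 per Ade mouse and 86 to 171 per Ade + IMC mouse. In CPM the Con mice had 8.07, 13, 14.9, 6.1 and 11.5, the Ade mice 12 to 26.7 (median 21.2) and the Ade + IMC mice 11.9 to 24.5 (median 17.8). Per kilobase of exon, the mean Con level of 5.01 CPM was near that of Pltp (4.16) and far below that of Lpl (61.7). The targeted gene was thus read at a low level in each mouse, and the tables hold no wild-type kidney to set it against. Apoe was higher in Ade than in Con kidneys by 0.93 on the log2 scale (SE 0.242, edgeR adjusted p = 0.00457), with overlap between the groups. Macrophages are a known source of apoE. The summed CPM of 12 macrophage markers was 226.5 to 270.9 for Con, 1622.6 to 2795.1 for Ade and 1441.1 to 2390.3 for Ade + IMC. All 12 of these markers were called higher in Ade than in Con kidneys, and their part in the Apoe, Abca1 and Pltp results was not tested.

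Lpl, lipoprotein lipase (chromosome 8, 68880491 to 68907448), was lower in the Ade group. The Con mice had 1215, 449.8, 500.0, 516.0 and 554.2 CPM. The Ade mice had 232.2 to 409.9 CPM with a median of 250.9, and the Ade + IMC mice had 256.3 to 756.4 CPM with a median of 496.7. Every Ade mouse lay below every Con mouse, whereas 3 of the 6 Ade + IMC mice lay above 4 of the 5 Con mice. The difference between the Ade and Con groups was −1.18 on the log2 scale (SE 0.244, edgeR adjusted p = 0.000893), and without Con mouse 201, which had 1215 CPM, it was −0.84. Mouse 201 had a fat cell marker sum of 0.606, with Adipoq, Retn and Adrb3 at 0 counts. In whole kidney, fewer cells of a type and less RNA per cell cannot be told apart, and Lpl was not assigned to a cell type here.

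Angptl4, the secreted inhibitor of lipoprotein lipase and a target of PPAR nuclear receptors (chromosome 17, 33773750 to 33781830), moved the other way. Its level was 35, 21.2, 80.6, 85.1 and 38.3 CPM for Con, 55.8 to 132.7 CPM (median 101.9) for Ade and 57.6 to 109.5 CPM (median 88.0) for Ade + IMC. A pair of Con mice (301 and 302) reached into the range of the Ade group, and Ade mouse 207, high in fat cell markers, was the lowest of its group. The difference between the Ade and Con groups was 1.0 on the log2 scale (SE 0.326, edgeR adjusted p = 0.0167), the largest adjusted p-value among the 10 genes in this comparison.

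The partners of lipoprotein lipase moved in both directions. Gpihbp1, which holds the enzyme on the capillary endothelium, was higher in the Ade group by 0.51 (edgeR adjusted p = 0.0205), from 4.31 to 7.18 CPM among Con kidneys to 6.74 to 10.7 CPM. Lmf1, a folding factor of lipases, was lower by 0.33 (adjusted p = 0.00401). Pcsk5, a protease that can cleave lipases, was lower by 0.89 (adjusted p = 1.03e-05), and Lipg, endothelial lipase, was higher by 1.01 (adjusted p = 0.018) from a level of 0.866 to 2.08 CPM for Con. Of 13 further genes listed for plasma lipolysis 9 were tested, and 2 were called higher and 5 lower, where 35.1% and 32.2% of all genes were.

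Cd36, a membrane transporter of long-chain fatty acids and a scavenger receptor (chromosome 5, 17781690 to 17888801), was lower in the Ade group by 1.49 on the log2 scale (SE 0.175, edgeR adjusted p = 9.38e-06). The Con mice had 256.6, 161.9, 180.3, 175.2 and 165.0 CPM, the Ade mice 46.6 to 94.6 CPM (median 65.1) and the Ade + IMC mice 60.3 to 203.6 CPM (median 96.8). The lowest Con mouse was above the highest Ade mouse. Of the Ade + IMC mice only mouse 212, the highest in fat cell markers, entered the range of the Con group, and the next highest stood at 98.3 CPM.

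Vldlr, the receptor for triglyceride-rich particles (chromosome 19, 27216484 to 27254231), was lower in the Ade group by 1.13 (SE 0.157, edgeR adjusted p = 3.73e-05). Its level was 182.0, 159.9, 132.7, 164.7 and 129.1 CPM for Con, 44.3 to 84.8 CPM (median 73.6) for Ade and 62.7 to 92.5 CPM (median 80.2) for Ade + IMC. Every mouse of both adenine groups was below every Con mouse. In mouse 212 Vldlr was 76.5 CPM, inside the range of its group.

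Among the other listed genes of fatty acid uptake, Slc27a2, a fatty acid transporter with acyl-CoA synthetase activity, was lower in the Ade group by 1.88 (edgeR adjusted p = 4.47e-05) and Acsl1, an acyl-CoA synthetase, by 1.76 (adjusted p = 0.000102). Fabp5, a fatty acid binding protein found in macrophages and epithelium, was higher by 1.75 (adjusted p = 9.72e-06), with 3.93 to 6.1 CPM for Con and 9.87 to 22.4 CPM for Ade. Of 13 tested, 3 were called higher and 7 lower, where 35.1% and 32.2% of all genes were. Of 15 receptor genes tested, 8 were called higher and 5 lower, against 35.1% and 32.2% of all genes. Without Ade mouse 207, 6 were called higher and 5 lower. Lrp2 (megalin), the endocytic receptor of the proximal tubule, was lower by 2.65 (adjusted p = 5.22e-05). The scavenger receptors Msr1 and Olr1 were higher, Msr1 from 3 to 8 counts for Con to 52 to 161 counts for Ade (log2 difference 4.48, adjusted p = 1.47e-07) and Olr1 from 0 to 2 counts to 16 to 53 counts (adjusted p = 2.59e-06). Cd36, a scavenger receptor as well, thus moved opposite to these. The summed CPM of the 10 proximal tubule markers, of which Lrp2 is 1, was 14726 to 20295 for Con, 2465 to 8982 for Ade and 4058 to 7985 for Ade + IMC. All 10 were called lower in the Ade group, and their part in the results for Cd36, Vldlr, Slc27a2 and Acsl1 was not tested.

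Dgat2, which catalyses the last step of triglyceride synthesis (chromosome 7, 99153658 to 99182719), had 180.3, 180.4, 163.9, 183.5 and 204.5 CPM for Con, the narrowest spread of the 10 genes in relation to its level (mean 182.5 ± 14.5 CPM, SD, n = 5). The Ade mice had 43.6 to 102.9 CPM (median 73.4) and the Ade + IMC mice 55.6 to 198.0 CPM (median 91.2). No Ade mouse reached the Con range, and of the Ade + IMC mice mouse 212 alone did. Dgat2 was lower in Ade than in Con kidneys by 1.30 (SE 0.166, edgeR adjusted p = 1.99e-05). Of the 16 other genes of triglyceride synthesis, all tested, 6 were called lower and 2 higher, or 6 and 1 without Ade mouse 207. Over all genes tested 32.2% were called lower and 35.1% higher, so the share called lower was near that of all genes. Gpam, Gpat3 and Agpat3, acyltransferases of the first steps of the pathway, were lower by 1.34, 1.04 and 1.0 (adjusted p = 8.1e-05, 0.000146 and 4.87e-05).

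Plin2, the coat protein of lipid droplets in cells other than fat cells (chromosome 4, 86648386 to 86670060), was higher in the Ade group by 0.74 on the log2 scale (SE 0.102, edgeR adjusted p = 3.44e-05), while Dgat2 was lower. The Con mice had 68.8, 64.7, 89.0, 95.9 and 77.7 CPM. The Ade mice lay close together at 121.7 to 137.9 CPM (median 132.8), whereas the Ade + IMC mice spread from 71.8 to 189.0 CPM (median 106.3). All Ade mice were above all Con mice, and 4 of the 6 Ade + IMC mice were below every Ade mouse, with mice 311 and 412 inside the Con range. Hilpda, a droplet protein that inhibits triglyceride breakdown, was also higher in the Ade group, by 1.17 (adjusted p = 0.00122), at 1.04 to 2.44 CPM for Con and 2.87 to 5.11 CPM for Ade. Cideb and Fitm2, proteins of droplet fusion and droplet formation, were lower by 1.39 and 1.10 (adjusted p = 4.71e-05 and 4.23e-05). Of 16 other droplet genes tested, 3 were called higher and 8 lower, where 35.1% and 32.2% of all genes were.

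Scd1, the delta-9 desaturase that makes oleate and palmitoleate (chromosome 19, 44394455 to 44407879), was the most abundant of the 10 genes. Its mean level in the Con group was 436 CPM per kilobase of exon, against 61.7 for Lpl, the next in order, 59.2 for Dgat2 and 52.3 for Cd36. The Con mice had 2245, 2614, 2091, 2001 and 1720 CPM, and the Ade mice 218.0 to 1236 CPM with a median of 430.1. No Ade mouse reached the lowest Con mouse, and the highest Ade mouse was 207, the one high in fat cell markers. The difference was −1.97 on the log2 scale (SE 0.388, edgeR adjusted p = 0.000635), and without mouse 207 it was −2.39 (adjusted p = 2.03e-05). Of the other listed genes of fatty acid synthesis, desaturation and elongation 18 were tested, of which 10 were called lower and 0 higher. Over all genes 32.2% were called lower and 35.1% higher. Fads2, the delta-6 desaturase, was lower by 1.43 (adjusted p = 2.95e-07), Elovl2, an elongase of polyunsaturated fatty acids, by 1.43 (adjusted p = 0.00017) and Acss2, a cytosolic acetyl-CoA synthetase, by 1.41 (adjusted p = 2.87e-06).

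In the Ade + IMC group Scd1 ranged from 475.2 CPM in mouse 311 to 5896 CPM in mouse 212, with a median of 1069. Mouse 212 exceeded the highest Con mouse, and mice 211 (1402 CPM) and 410 (1250 CPM), the other Ade + IMC mice high in fat cell markers, came next. In the 3 mice of this group with a fat cell marker sum below 5 CPM (310, 311 and 412), Scd1 was 888.4, 475.2 and 532.7 CPM. Mouse 212 was also the highest of its group for Lpl, Cd36, Dgat2, Plin2 and Abca1. Its fat cell genes were read at 3168 counts for Ucp1, the uncoupling protein of brown fat, 2565 for Cfd (adipsin) and 572 for Adipoq (adiponectin). Scd1, Lpl, Cd36 and Dgat2 are known to be high in fat cells as well as in kidney. The part of fat tissue RNA in the levels of mouse 212 was not tested beyond leaving the mouse out.

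**Figure D2:**
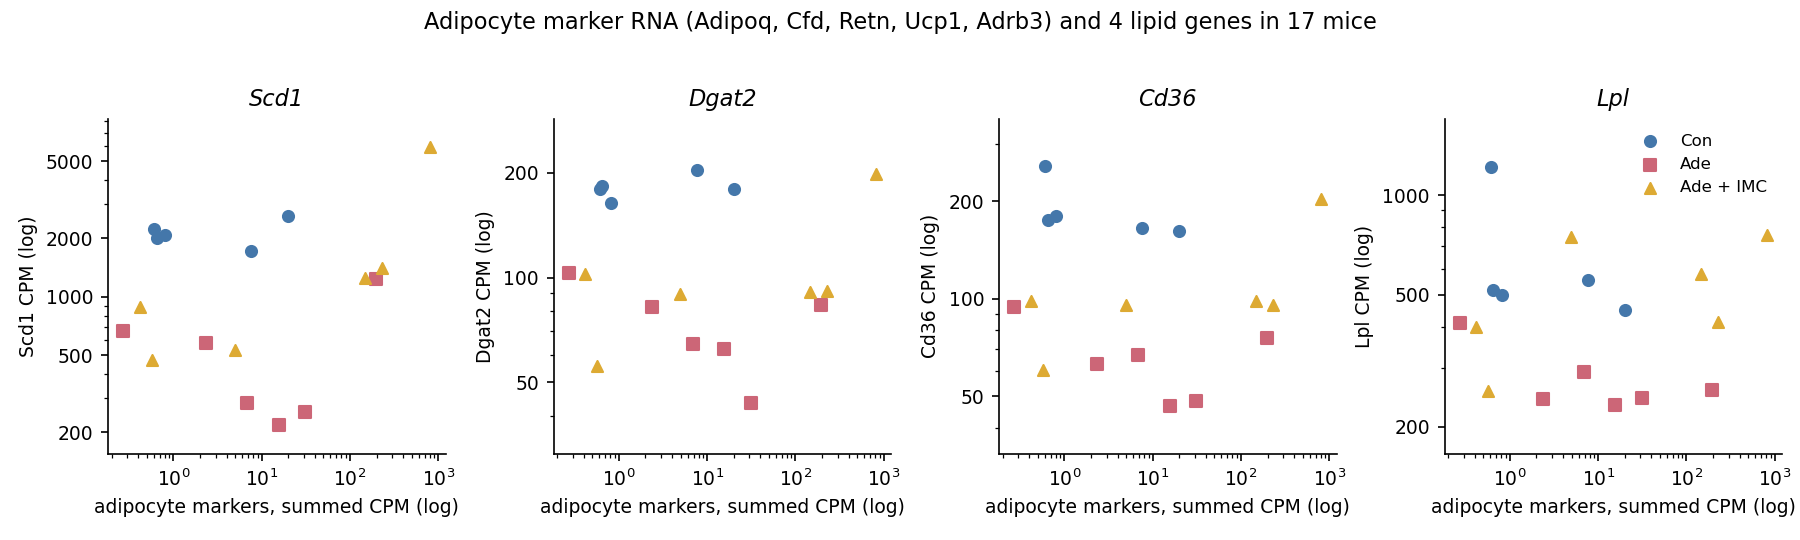
Summed CPM of the 5 fat cell genes Adipoq, Cfd, Retn, Ucp1 and Adrb3 (x axis, log scale) against the CPM of Scd1, Dgat2, Cd36 and Lpl (y axes, log scale), 1 point per mouse, in the Con (circles), Ade (squares) and Ade + IMC (triangles) groups. Mouse 212, at the right of each panel with 809.4 CPM of fat cell genes, had 5896 CPM of Scd1, while Con mouse 201, with 1215 CPM of Lpl, had 0.606 CPM of fat cell genes.

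Abca1, the transporter that loads cholesterol onto apolipoproteins (chromosome 4, 53030787 to 53159895), was higher in both adenine groups. Its level was 72.7, 86.5, 68.0, 68.8 and 54.5 CPM for Con, 108.3 to 176.0 CPM (median 128.2) for Ade and 111.7 to 145.0 CPM (median 119.6) for Ade + IMC. No mouse of the adenine groups fell to the level of any Con mouse. The difference between the Ade and Con groups was 0.95 on the log2 scale (SE 0.141, edgeR adjusted p = 6.87e-05).

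Pltp, the plasma phospholipid transfer protein (chromosome 2, 164839518 to 164857711), showed the largest difference of the 10 genes. The Con mice had 9.79, 13.4, 11.8, 8.05 and 10.2 CPM. The Ade mice had 42.6 to 75.2 CPM (median 65.6) and the Ade + IMC mice 48.2 to 78.8 CPM (median 66.2). Counts rose from 62 to 97 per Con mouse to 335 to 583 per Ade mouse, a log2 difference of 2.59 (SE 0.170, edgeR adjusted p = 6.13e-08), and the adenine groups covered almost the same range. Pltp shares 495 of its 2562 exonic bases with Ctsa on the opposite strand, and whether reads were counted by strand is not given in the sources used here, so its counts are uncertain to that extent. Ctsa itself had 243.5 to 300.0 CPM for Con and 258.1 to 325.3 CPM for Ade, a log2 difference of 0.17 that was not called (adjusted p = 0.132). The other 9 genes share 0 exonic bases with another gene.

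The list of apolipoproteins, cholesterol efflux and lipoprotein remodelling, to which Apoe, Abca1 and Pltp belong, held 18 other tested genes. Of these 10 were called higher and 5 lower, where 35.1% and 32.2% of all genes were. Apod, an apolipoprotein of the lipocalin family, was higher by 2.51 (edgeR adjusted p = 3.32e-05), from 3 to 10 counts for Con to 20 to 37 for Ade. Soat2, a cholesterol esterifying enzyme, was higher by 2.51 (adjusted p = 2.78e-05), from 2 to 5 counts to 10 to 32. Apom, a carrier of sphingosine-1-phosphate made in the proximal tubule, was lower by 2.54 (adjusted p = 5.71e-05), from 46.6 to 75.5 CPM to 2.03 to 20.8 CPM. Of 11 tested genes in the list of nuclear receptors of lipid metabolism, 7 were called lower and 1 higher, where 32.2% and 35.1% of all genes were. Ppara, the receptor that drives fatty acid oxidation, was lower by 1.98 (adjusted p = 9.13e-06), Hnf4a by 1.70 (adjusted p = 7.48e-06) and Ppargc1a, a coactivator of PPARs, by 1.18 (adjusted p = 8.83e-06). Nr1h3, which encodes the sterol sensor LXR alpha that can induce Abca1, was lower by 0.67 (adjusted p = 0.00164) while Abca1 was higher. Pparg, the PPAR of fat cells and macrophages, was higher by 1.15 (adjusted p = 0.00739), at 1.82 to 3.75 CPM for Con and 2.57 to 10 CPM for Ade, with the highest value in mouse 207. In the Ade + IMC group it was highest in mice 212 (27.4 CPM), 211 (11.9 CPM) and 410 (9.3 CPM), so the highest values of both groups were in mice high in fat cell markers. The other Ade + IMC mice had 3.32 to 7.62 CPM. Without mouse 207 Pparg was higher in Ade than in Con kidneys by 0.90 (adjusted p = 0.0135).

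Over all 8 lists, 116 of the 130 other lipid genes were tested between the Ade and Con groups. Of these 29 were called higher (35.1% over all genes), 53 were called lower (32.2% over all genes) and 34 were not called, with a median log2 fold change of −0.21. Without Ade mouse 207, 80 were called in place of 82.

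**Figure D3:**
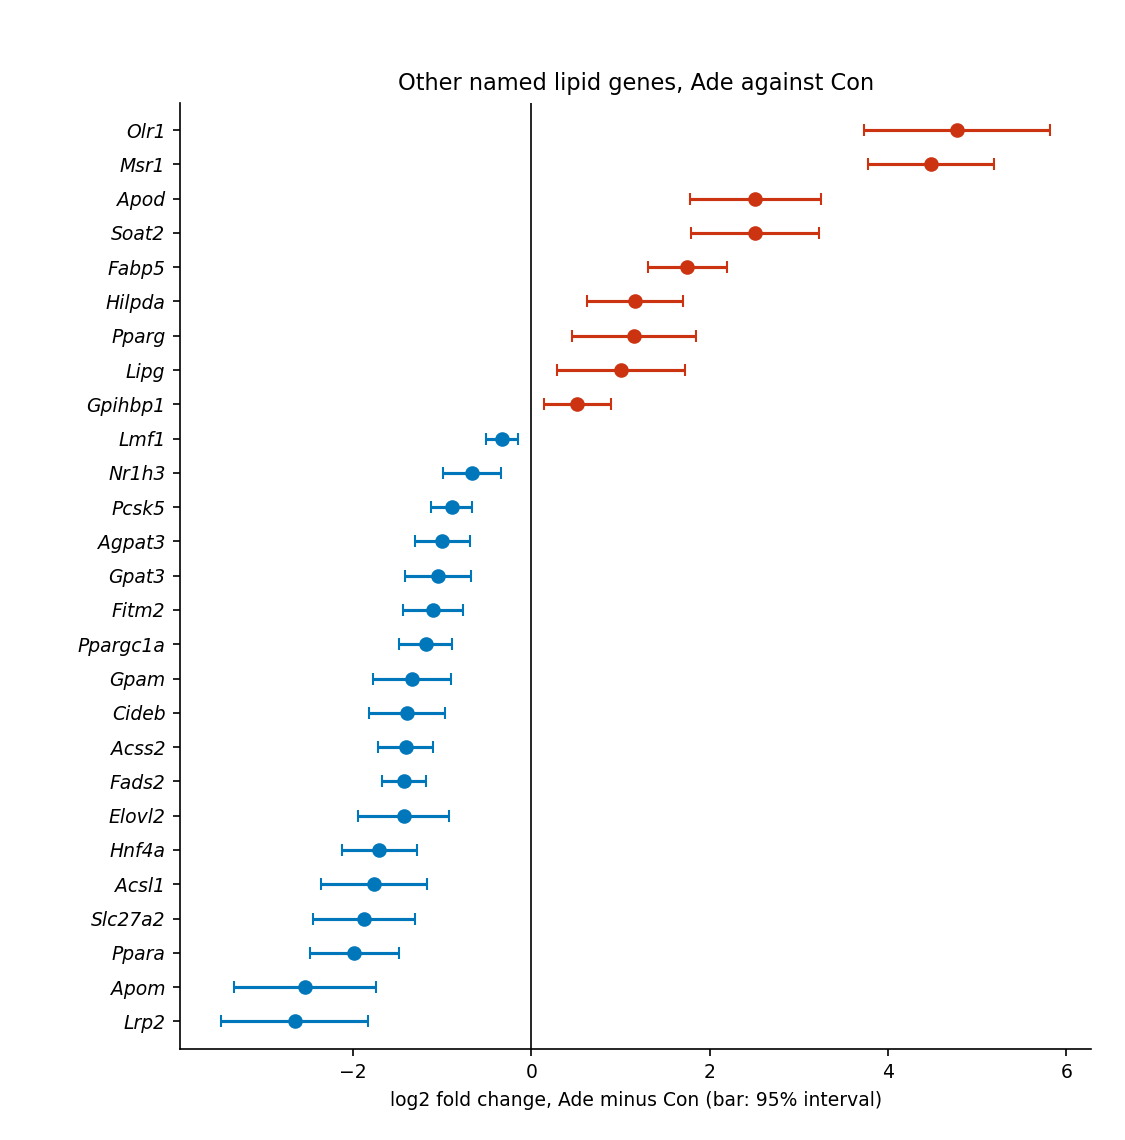
Log2 fold change, Ade minus Con, of 27 other lipid genes (points) with 95% intervals (bars) from edgeR, ordered by size, red for higher and blue for lower. Most of these genes were picked for the largest changes among the called genes of their role list, so they are not typical of it. Lrp2 and Apom lie at the lower end at −2.65 and −2.54, and Apod, Soat2, Msr1 and Olr1 at the upper end.

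IMC was fed to ask what less trimethylamine changes in mice on adenine. Between the Ade + IMC and Ade groups, 6 of the 10 genes had a log2 difference above 0 and 4 below 0, and 0 of the 10 were called. Lpl, Scd1 and Cd36 had the largest differences, all higher in the Ade + IMC group, and their values in single mice overlapped between the groups. By limma 0 of 14696 genes were called (0% of those tested), 988 genes (6.72%) had an unadjusted p-value below 0.05, edgeR on the whole reads called 0 genes and DESeq2 called 37. Among the 10 genes 3 had an unadjusted p-value below 0.05. Lpl was 0.83 higher on the log2 scale in the Ade + IMC group (95% interval 0.31 to 1.34, limma adjusted p = 0.706), Scd1 1.37 higher (0.13 to 2.61, adjusted p = 0.715) and Cd36 0.65 higher (0.13 to 1.17, adjusted p = 0.711). The same 6 Ade mice enter this comparison and that with the Con group. DESeq2 on the whole reads called 1 of the 10 genes, Lpl (log2 difference 0.89, adjusted p = 0.0943). Where mice were blocked by the leading digit of their number, whose meaning is not stated, limma called 133 genes and 1 of the 10, again Lpl (0.95, adjusted p = 0.0627).

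For the other 7 genes the intervals covered 0. The difference was 0.45 for Dgat2 (−0.11 to 1.0) and 0.22 for Vldlr (−0.11 to 0.55). It was −0.29 for Plin2 (−0.69 to 0.11), −0.27 for Angptl4 (−0.72 to 0.17) and −0.18 for Apoe (−0.62 to 0.25). It was −0.12 for Abca1 (−0.37 to 0.14), the narrowest interval of the 10, and 0.02 for Pltp (−0.33 to 0.37). Without the 4 mice high in fat cell markers, which leaves 5 Ade and 3 Ade + IMC mice, 0 of the 10 genes and 1 gene in all (0.00681% of those tested) were called and the values were 0.60 for Lpl, 0.75 for Scd1 in place of 1.37, 0.41 for Cd36 and 0.22 for Dgat2 in place of 0.45, and −0.60 for Plin2 in place of −0.29, −0.58 for Angptl4 and −0.45 for Apoe.

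**Figure D4:**
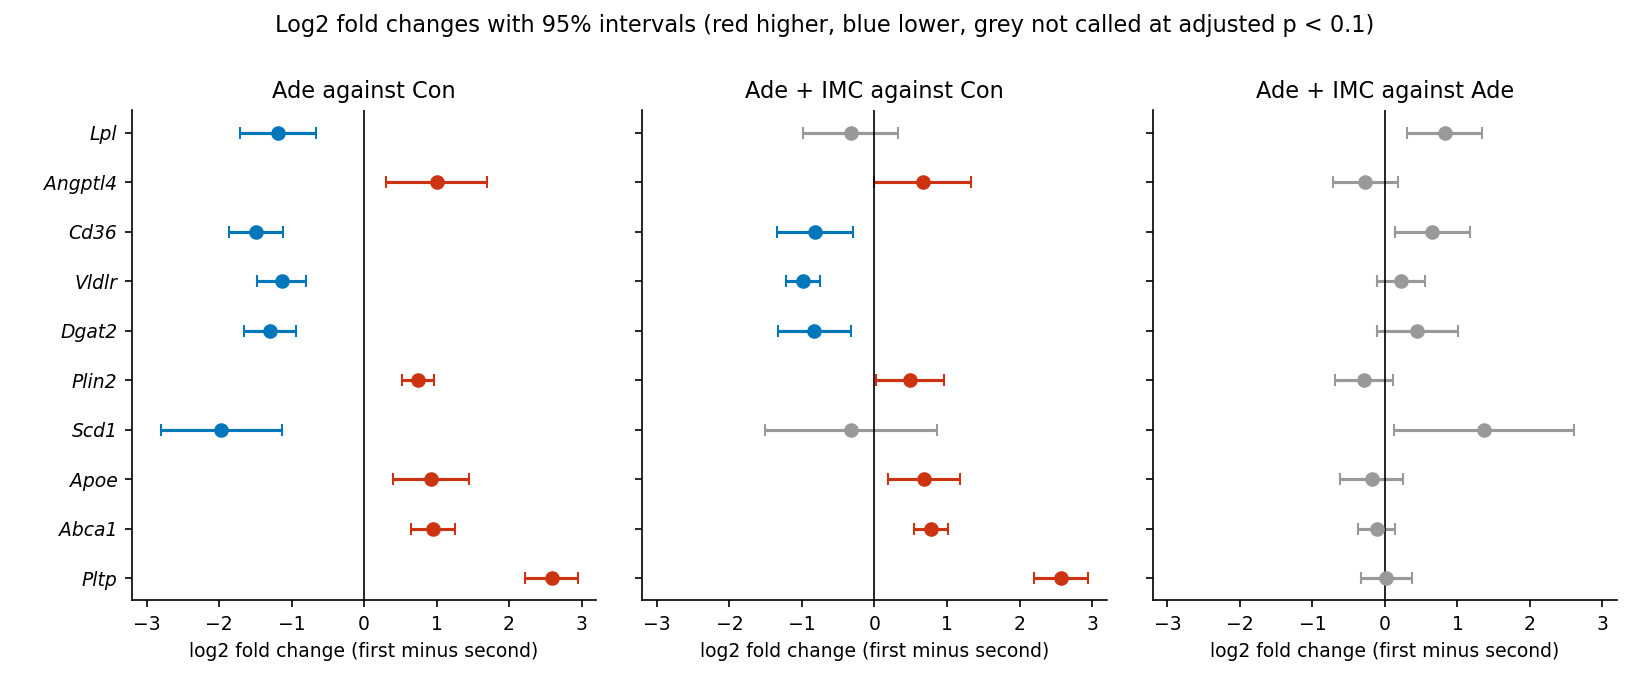
Log2 fold change of the 10 genes (points) with 95% intervals (bars) in the 3 comparisons, the first named group minus the second, with genes called higher in red, called lower in blue and not called in grey. All 10 genes were called between the Ade and Con groups, 8 between the Ade + IMC and Con groups and 0 between the Ade + IMC and Ade groups.

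Set against the Con group, the Ade + IMC group had 5 of the 10 genes called higher (30.9% of 14578 genes tested) and 3 called lower (32.3%), with 63.2% of all genes called. Pltp was higher by 2.57 (SE 0.171, edgeR adjusted p = 1.88e-07), Abca1 by 0.78 (SE 0.110, adjusted p = 6.3e-05), Apoe by 0.69 (adjusted p = 0.022), Angptl4 by 0.67 (adjusted p = 0.0836) and Plin2 by 0.49 (adjusted p = 0.0683). Vldlr was lower by 0.98 (SE 0.108, adjusted p = 9.46e-06), Dgat2 by 0.83 (adjusted p = 0.00851) and Cd36 by 0.82 (adjusted p = 0.0111). Lpl and Scd1 were not called, with log2 differences of −0.33 (95% interval −0.99 to 0.33, adjusted p = 0.375) and −0.32 (−1.51 to 0.86, adjusted p = 0.641). The groups did not overlap for 3 of the 10 genes, Vldlr, Abca1 and Pltp, where 37% of all genes tested had no overlap.

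The Scd1 value between the Ade + IMC and Con groups rested on mouse 212. Without it the difference was −1.25 (edgeR adjusted p = 0.00259), and without all mice high in fat cell markers it was −1.75 (adjusted p = 0.000466). In that last comparison, of 5 Con and 3 Ade + IMC mice, 6 of the 10 genes were called, where 48.8% of all genes tested were. Pltp (2.49) and Abca1 (0.72) were called higher and Scd1, Cd36 (−1.15), Dgat2 (−1.14) and Vldlr (−0.99) lower, whereas Plin2 (0.14, adjusted p = 0.527), Angptl4 (0.58, adjusted p = 0.286) and Apoe (0.50, adjusted p = 0.19) were not called. The Lpl value was −0.47 (adjusted p = 0.356). Lpl was 0.02 without Con mouse 201 (adjusted p = 0.954), so its direction rested on that mouse. The calls of Plin2 and Angptl4 did not hold against single mice. Plin2 was not called without mouse 201, 202, 403, 211 or 212 (adjusted p = 0.115 to 0.151), and was 0.29 without mouse 212. Angptl4 was not called without mouse 201, 202, 403, 211, 212, 310 or 410 (adjusted p = 0.111 to 0.188).

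**Figure D5:**
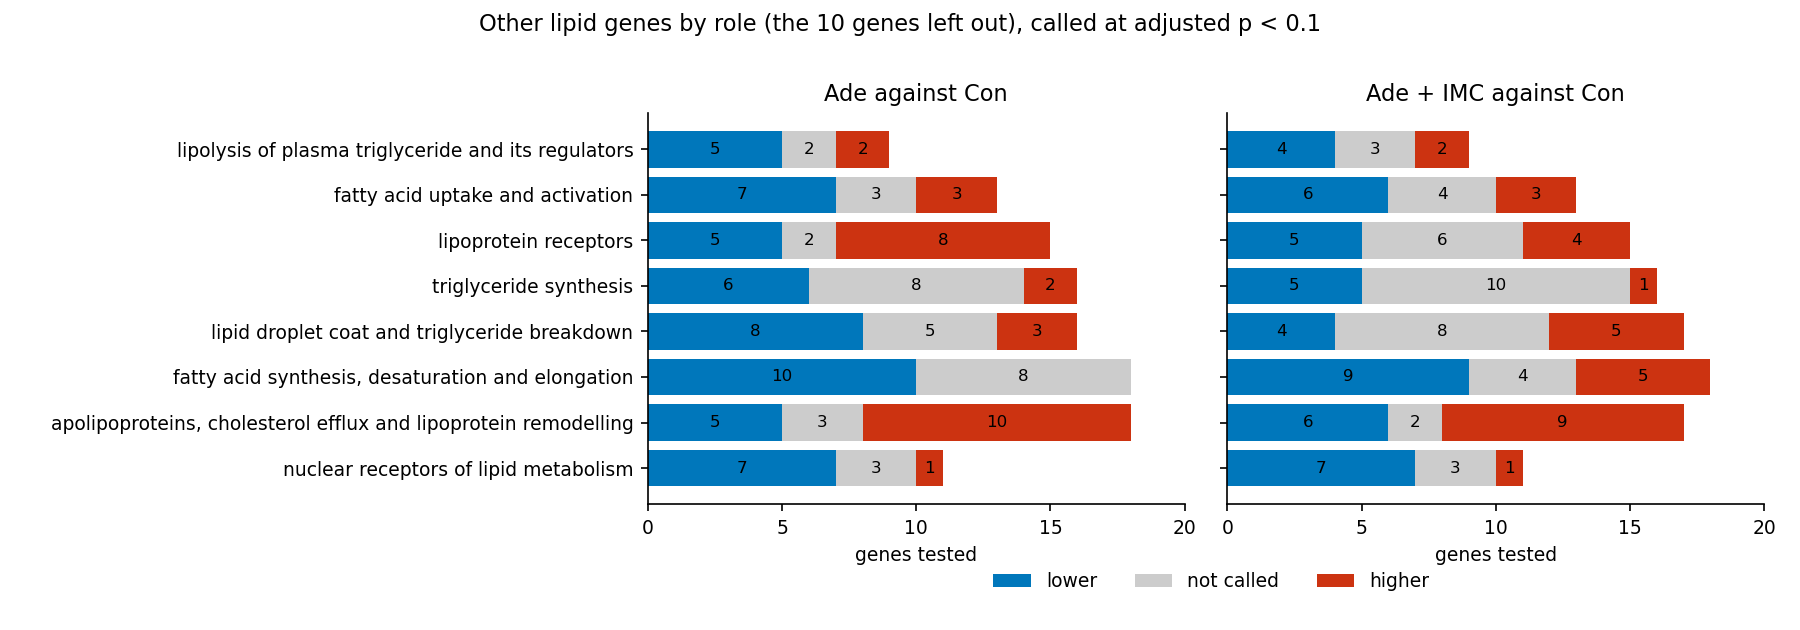
Number of other listed lipid genes called lower (blue), not called (grey) and called higher (red) at an adjusted p-value below 0.1 in each of 8 role lists, for the Ade against Con and the Ade + IMC against Con comparisons. The x axis counts the genes tested. In fatty acid synthesis 10 genes were called lower and 0 higher in the first comparison, and 9 lower and 5 higher in the second.

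Between the Ade + IMC and Con groups, 9 of 18 genes of fatty acid synthesis were called lower and 5 higher, where 32.3% and 30.9% of all genes tested were. Without the mice high in fat cell markers 9 of these 18 were called lower and 0 higher. Of 17 droplet genes 4 were called lower and 5 higher, shares near or below those of all genes, and without these mice 6 of 16 were lower and 1 higher. The lists of fatty acid uptake and droplet genes hold 5 of the 10 measured genes of the fat cell list. In all, 30 of 116 other lipid genes were called higher and 46 lower between the Ade + IMC and Con groups, and 64 in all were called without the mice high in fat cell markers in place of 76. Between the Ade + IMC and Ade groups 0 of 121 other lipid genes were called by limma and 17 had an unadjusted p-value below 0.05, and edgeR and DESeq2 on the whole reads called 0 of them.

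Mice within a group differed in several of the 10 genes at a time. Ade mouse 407 was the highest of its group for Lpl, Angptl4, Cd36, Vldlr and Dgat2, with 409.9 CPM of Lpl against 232.2 to 293.4 in the others, at a fat cell marker sum of 0.271. Ade mouse 308, the library with the fewest counts (5444833), was the lowest of its group for Lpl, Cd36, Vldlr, Scd1 and Abca1. In the Ade + IMC group mouse 311 was the lowest for 8 of the 10 genes and the highest for Pltp. The summed CPM of 9 endothelial markers was 840.1 to 1244 for Con, 481.2 to 1013 for Ade and 655.2 to 1253 for Ade + IMC. That of 7 fibroblast markers was 333.3 to 413.1, 2662 to 3279 and 2011 to 3040, and that of 5 tubular injury markers 24.9 to 32, 414.7 to 1328 and 303.1 to 806.7 in the same order. The fibroblast and injury sums of every adenine-fed mouse lay above those of every Con mouse, whereas the endothelial ranges overlapped in all 3 groups. Of the 9 endothelial markers, 6 were called lower and 0 higher in Ade than in Con kidneys, where 32.2% and 35.1% of all genes were. In Ade + IMC against Con kidneys 2 were called lower and 1 higher, where 32.3% and 30.9% of all genes were. The part of these cell types in the results was not tested.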

How the data were processed

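Kidney RNA-seq of 17 apoE knockout mice was analysed, 5 Con, 6 Ade and 6 Ade + IMC, grouped by the treatment in the labels. TruSeq libraries were sequenced as single-end reads. The paper's methods name STAR 2.3.1 with the mm10 genome, whereas the submitters' processing notes name Trimmomatic 0.39, FastQC 0.11.8, Bowtie2 2.2.5, HTSeq 0.9.1 and DESeq2, so the aligner is uncertain, and the annotation and the use of strand are not given in the sources used here.

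The authors deposited raw counts per gene for the Con and Ade mice (21004 genes). A second deposited table held the mice on adenine, with and without IMC, as a normalized signal, counts over a size factor per library from DESeq2's median of ratios (21287 genes). Divided by the worth of 1 read, 100% of these values came out whole (tolerance 0.0001), and 0 recovered reads differed from the raw counts of the Ade mice. Gene symbols came from the authors' table of their own comparison, whose fold changes, Wald statistics and p-values were not used. Replicates differed by more than counting error, with a chi-square of at least 4.21 for each degree of freedom. Nothing in the labels ties mice to litters or batches.

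The Ade and Con groups, and with recovered reads the Ade + IMC and Con groups, were compared by edgeR 4.0.16 (quasi-likelihood test, TMM, filterByExpr). For Ade + IMC against Ade, limma 3.58.1 (trend) was run on log2(normalized count + 1) of genes with a mean of at least 10, a scale that understates the change of low genes. Analyses were run in R 4.3.3, with DESeq2 1.42.0 as an alternative. The fits were also run on simulated counts in which only 200 genes were shifted. In the data themselves 67.3% of the genes tested were called between Ade and Con. The rates below therefore hold for the simulated setting and do not give the error or power of the calls above. Of 200 genes shifted by 1 on the log2 scale, 80.9% were recovered for Ade against Con (14555 genes, 10.8% of calls false), 81.6% for Ade + IMC against Con (14614 genes, 10.1% false) and 80.4% for Ade + IMC against Ade (14694 genes, 6.98% false).

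The members, role lists and markers were chosen with earlier results of these data known. Genes named are the 10 members, Gpihbp1, Lmf1, Ppara, Pparg and Nr1h3, and in each role list the 3 others with the largest log2 fold change among those called between Ade and Con, of which 1 is not reported here. Ctsa and the fat cell genes given singly were named for their overlap or marker role. Levels per kilobase used exon lengths of GENCODE vM21 (GRCm38), also the source of coordinates. The alternatives changed the tool, scaling, filter, threshold, pseudocount, mice in the fit, block and mice left out. That without the 4 mice highest in fat cell markers was added after seeing the data.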

Additional observations from a re-analysis of the deposited data

Results flagged for a closer look

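Single mice lay far from the rest of their group by Dixon's test in 9 of 36 sets of values (10 genes, the fat cell marker sum and the total count, in 3 groups). The rate of about 1 in 20 for this test assumes independent values with a normal spread. These sets share mice and hold unlogged values, so 9 of 36 cannot be read against that rate. Con mouse 201 had 1215 CPM of Lpl (others 449.8 to 554.2) and 256.6 CPM of Cd36 (others 161.9 to 180.3), at a fat cell marker sum of 0.606. Ade mouse 407 had 409.9 CPM of Lpl (others 232.2 to 293.4). Ade + IMC mouse 212 had 203.6 CPM of Cd36 (others 60.3 to 98.3), 198.0 CPM of Dgat2 (others 55.6 to 102.4) and 5896 CPM of Scd1 (others 475.2 to 1402). The same mouse had a fat cell marker sum of 809.4 CPM (others 0.415 to 230.4), and that of Ade mouse 207 was 197.1 CPM (others 0.271 to 31.0). The total count of Ade mouse 308 was 5444833 (others 7166746 to 7673215).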

How the results depend on the processing

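Between the Ade and Con groups, all 190 alternative values of the 10 genes kept their direction and call, and leaving out 1 mouse gave 9145 to 9848 genes and 10 members called. These values are not separate checks. The threshold of 0.05 was applied to the main fit, and leaving out the mice high in fat cell markers here left out mouse 207 alone. For Ade + IMC against Ade, leaving out 1 mouse gave 0 genes and 0 members called. DESeq2 called 37 genes and 1 member, Lpl, and the count without the 4 mice high in fat cell markers was 1 gene. The first digit of the mouse number, whose meaning is not stated, was used as a replicate block. It called 133 genes and 1 member, Lpl (0.95, adjusted p = 0.0627), with 9740 genes for Ade against Con and 9193 for Ade + IMC against Con, and changed no call of a member in those. Deviations of mice with the same digit correlated at a median of 0.23 (−0.25 to 0.50) between the Ade and Ade + IMC groups and at a median of −0.06 for different digits. Between the Con and Ade groups these medians were 0.04 and −0.01, and between the Con and Ade + IMC groups 0.03 and 0.01. The labels do not say what mice of the same digit share. Pltp, at 0.02, turned to −0.0005 with the block, to −0.22 without the mice high in fat cell markers and to −0.0884, −0.0086, −0.0149, −0.0315 or −0.0474 without Ade mouse 207 or 407 or Ade + IMC mouse 211, 212 or 311, with 0.1015 as the highest value on leaving out 1 mouse, all inside its interval. For Ade + IMC against Con 8486 to 9185 genes and 6 to 8 members were called when 1 mouse was left out, Lpl turned to 0.0208 without Con mouse 201 (−0.4594 at the lowest, without mouse 212), and 6 members were called at a threshold of 0.05. The causes were not tested. The lowest count of a member in any mouse was 47 for Apoe and 62 for Pltp, and among the other genes named Olr1, Soat2, Msr1 and Apod had at most 10 counts per Con mouse, so that their values there carry more counting error.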
